A study of Mus musculus with 4 samples.

Results

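The genes described here are 7 enzymes and transporters of arginine, itaconate and tryptophan metabolism, Nos2, Ass1, Slc7a2, Odc1, Acod1, Ido1 and Il4i1, taken by name out of the 32285 genes measured in immune cells of mouse melanomas. All 7 were found in the expression matrix. Of these genes 5 reached a mean of 10 CPM (unique transcript counts, UMIs, per 1000000 UMIs) in at least 1 of the comparisons of the summed monocytes and macrophages, and Ido1 and Il4i1 reached it in none.

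Activated myeloid cells change how they use arginine, tryptophan and the tricarboxylic acid cycle. Nos2, the inducible nitric oxide synthase of inflammatory monocytes and macrophages, turns arginine into nitric oxide and citrulline. Slc7a2 imports arginine into myeloid cells, Ass1 recycles citrulline towards arginine, and Odc1 commits ornithine to polyamine synthesis. Acod1 makes itaconate from the tricarboxylic acid cycle intermediate cis-aconitate in activated phagocytes, Ido1 starts the breakdown of tryptophan to kynurenine, and Il4i1 is a secreted amino acid oxidase of mature dendritic cells.

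The study asked how the immune cells of tumours that respond to transferred T cells differ from those of tumours that do not. CD45+ cells were sorted from YUMM1.7OVA melanomas, a Braf-driven mouse tumour line that expresses ovalbumin, grown in Rag2-/- mice, which have no T or B cells of their own, and OT-1 T cells against ovalbumin had been given to every host on day 7, 72 h before the tumours were taken on day 10. The 4 samples were NTT (line Y1.7_NTT_3A6, naive to targeted therapy), RTT (line Y1.7_RTT_2B12, resistant to MAPK pathway inhibitors), RTT_ROSA26 (RTT cells that carry a control guide to the ROSA26 locus) and RTT_PTGS12KO (RTT cells without Ptgs1 and Ptgs2, which encode the cyclooxygenases that make prostaglandin precursors). The edit was made in the cancer cells, which the CD45+ sort leaves out, so the values of the immune cells give no check of it. The first 2 lines carry the names of single clones, and the knockout lines came from clones with inducible Cas9.

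Each group is 1 sample. No test between groups was therefore possible, and every interval below is a 95% interval that covers counting error only, not the spread between tumours. The samples held 8266, 7970, 6836 and 10296 cells in the order NTT, RTT, RTT_ROSA26 and RTT_PTGS12KO, with 69332486 to 146829369 UMIs per sample and a median of 7292.5 to 13280 UMIs per cell, lowest in NTT. All 4 were labelled, pooled and loaded 3 times onto 1 chip, so that free RNA in a load was shared by the samples. No barcode was shared by 2 samples within a load, and 98 barcodes recurred between loads. The authors had sorted the 33368 cells into 17 named types. Checked against their defining markers, 4 of 4 monocyte markers exceeded 10 CPM in every Monocyte_1 and Infl_Mono sum, as did 4 of 4 Spp1 macrophage markers in the TAM_Spp1 sums of the 3 RTT-derived samples, 5 of 5 neutrophil markers in all 4 Neutro sums, and 4 of 4 markers of CCR7+ dendritic cells in DC3 of NTT and RTT_PTGS12KO. The monocyte names were not clear-cut in the RTT-derived tumours. In RTT the summed macrophage markers (C1qa, C1qb, C1qc, Apoe, Adgre1 and Mrc1) exceeded the summed monocyte markers (Ly6c2, Ccr2, Plac8 and Chil3) in Monocyte_1 (11374 against 2514 CPM) and in Infl_Mono (24281 against 5482 CPM), and they did so too in both types of RTT_ROSA26 and in Monocyte_1 of RTT_PTGS12KO. The names are therefore used as the authors gave them. Melanoma markers summed to at most 0.334 CPM in any sample. The types had been clustered on these genes among others, so differences in level between types are a description.

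All 7 genes are protein coding, and their positions are given in the GRCm38 build with GENCODE vM21. Nos2 lies at chr11:78920787-78960254 on the plus strand, and Odc1 at chr12:17544794-17551505, also on the plus strand. Ass1 lies at chr2:31470207-31520672, Acod1 at chr14:103046977-103056573 and Il4i1 at chr7:44816387-44840809, all on the plus strand. Slc7a2 (chr8:40862396-40922308, plus strand) and Ido1 (chr8:24584136-24597009, minus strand) share a chromosome. The RefSeq table of promoters (GRCm38.p6, 250 bases before to 50 bases after a start) held 4 of the 7 genes, and 8 short motifs were searched on both strands in these windows. Ass1 and Acod1 are shown because they were the only 2 of the 4 with a match and because both were among the genes that differed most between the samples. The capitals mark the matched letters.
Ass1, chr2:31470222-31470251, plus strand: cgcgcccgtcccCACGTGtcccaggttcct
Acod1, chr14:103046981-103047010, plus strand: gtgtataaaggcaCACGTccactaaaggcc
In Ass1 the match was the E-box CACGTG, which overlaps the hypoxia element ACGTG on each strand and begins 36 bases before the RefSeq start. In Acod1 it was ACGTG on the minus strand, 18 bases before the start. GENCODE places the starts of both genes further upstream, so the matches begin 27 and 17 bases after its start of Ass1 and Acod1. Of all 32851 promoters in the table, 19.6% held ACGTG and 7.15% held CACGTG. No match was found in the windows of Odc1 and Il4i1, nor in any of the 4 windows for the GAS element TTCNNNGAA (8.3% of all promoters), the STAT6 element (6.95%), the ISRE (3.44%), kappaB (8.46%), the cyclic AMP response element TGACGTCA (1.79%) or C/EBP TTGCNNAA (10.8%). These are letters in a window and say nothing of binding.

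The nitric oxide synthase Nos2 was mainly a monocyte transcript in NTT and RTT_PTGS12KO and was spread over more types in RTT and RTT_ROSA26. Over all samples 70.5% of its UMIs came from Monocyte_1, a type with 26.3% of the cells and 18.1% of all UMIs, and a further 12.9% came from Infl_Mono. By sample, Monocyte_1 held 76.3% of the Nos2 UMIs in NTT and 72.9% in RTT_PTGS12KO, but 27.5% in RTT, where TAM_Spp1 held 29.6%, and 1.77% in RTT_ROSA26, where TAM_cycling held 24.6%, TAM_Spp1 22.2% and neutrophils 21.3%. In Monocyte_1 the level of Nos2 was 259 CPM (254 to 264) in NTT, 200 CPM (196 to 205) in RTT_PTGS12KO, 111 CPM (100 to 122) in RTT and 24.3 CPM (11.6 to 44.6, from 10 UMIs in 54 cells) in RTT_ROSA26. The intervals of the 4 samples did not overlap, and NTT and RTT_PTGS12KO lay above both resistant samples that keep the cyclooxygenases. Infl_Mono gave 209 CPM in NTT, 132 CPM in RTT, 126 CPM in RTT_PTGS12KO and 19.1 CPM in RTT_ROSA26, where the counting intervals of RTT and RTT_PTGS12KO overlapped. Neutrophils of NTT reached 225 CPM, and those of the other samples 80.6 CPM (RTT_PTGS12KO), 52.5 CPM (RTT_ROSA26) and 50.5 CPM (RTT).

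Macrophage sums of at least 50 cells held less Nos2 than Monocyte_1 of the same sample, and their level depended on the sample. In TAM_Spp1 it stood at 18.7 CPM (17 to 20.5) in RTT, 9.11 CPM (7.59 to 10.9) in RTT_ROSA26 and 26.8 CPM (24.3 to 29.5) in RTT_PTGS12KO, and NTT had only 20 cells of this type. In TAM_C1q it was 4.89, 3.24 and 10.7 CPM in the same order. With at least 50 cells, the other macrophage types reached 44.2 CPM in both TAM_cycling (34 to 56.6) and TAM_H2Ab1 (35.6 to 54.3) of NTT. They reached 39.1, 29.3 and 22.8 CPM in Macro, TAM_H2Ab1 and TAM_cycling of RTT_PTGS12KO. In RTT and RTT_ROSA26 the highest such sum of these types was TAM_H2Ab1 of RTT with 15 CPM. Some smaller sums lay above these: the 21 Macro cells of NTT held 42 Nos2 UMIs of 259206, and the 11 TAM_H2Ab1 cells of RTT_ROSA26 held 4 of 156214. NK cells, a lymphoid type taken here as a level for comparison, showed 18.2 CPM in NTT and 5.31 CPM in RTT_PTGS12KO. Ctsk_Macro of RTT, from the same loads, showed 1.33 CPM. The Nos2 UMIs of the NK cells in NTT came from 37 of 709 cells, and 19 of these 37 also held Acod1. Whether the NK level is free RNA was not tested, so values above or below it do not give the part of free RNA. NK cells of RTT and RTT_ROSA26 held 0 Nos2 UMIs in 13 and 26 cells, which allows up to 13.2 and 6.52 CPM (3 UMIs). The macrophage values of RTT and RTT_ROSA26 did not exceed the NK value of NTT by more than their counting error, though TAM_Spp1 of both lay above the limits from their own NK cells. TAM_cycling and TAM_H2Ab1 of NTT exceeded the NK value of their own sample. So did Macro, TAM_H2Ab1, TAM_cycling, TAM_Spp1 and TAM_C1q of RTT_PTGS12KO, though TAM_C1q lay below the NK value of NTT. The part of free RNA in these macrophage values was not tested.

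**Figure D1:**
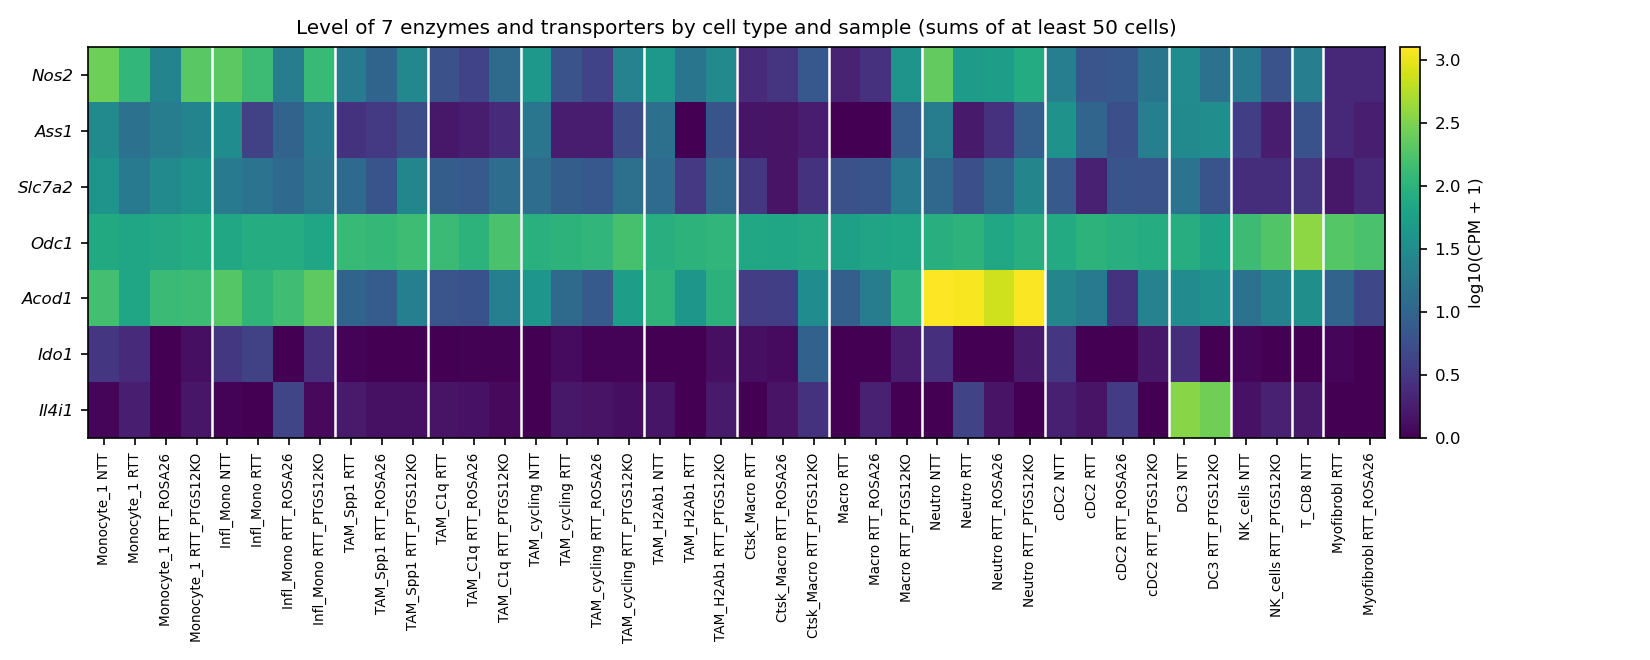
Level of each of the 7 genes (rows) in every combination of cell type and sample with at least 50 cells (columns, grouped by type), coloured by log10(CPM + 1) of the summed UMIs. Odc1 was over 10 CPM in all 42 columns, Acod1 in 31, Nos2 in 27, Slc7a2 in 18, Ass1 in 13, Il4i1 in 2 and Ido1 in none.

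Acod1, the itaconate enzyme, was highest in neutrophils. It stood at 1265 CPM (1201 to 1331) in NTT, 1203 CPM (1147 to 1261) in RTT_PTGS12KO, 1188 CPM (1134 to 1244) in RTT and 764 CPM (728 to 801) in RTT_ROSA26, so that RTT_ROSA26 lay below the other 3, whose intervals overlapped. Neutrophils were 1.56% of the cells with 1.44% of all UMIs, and gave 24.6% of the Acod1 UMIs. That share was 59.1% in RTT and 69.5% in RTT_ROSA26, the samples with few monocytes. In Monocyte_1 the level was 147 CPM in NTT, 133 CPM in RTT_PTGS12KO, 129 CPM (96.3 to 168) in RTT_ROSA26 and 65.0 CPM in RTT, and RTT was the sample that stood low. In macrophages it was 5.10 to 9.07 CPM in TAM_C1q and TAM_Spp1 of RTT and RTT_ROSA26, and 20.6 CPM in both types of RTT_PTGS12KO. The NK cells of RTT_PTGS12KO showed 22.4 CPM of Acod1 (18.5 to 26.8), so these 2 macrophage values did not exceed those NK cells. The lowest Acod1 level of the 42 combinations with at least 50 cells was far lower, 1.82 CPM in cDC2 of RTT_ROSA26, from the same loads. The part of free RNA in the macrophage values was not tested. NK cells gave 13.8 CPM in NTT, 44.1 CPM (21.1 to 81.1, from 10 UMIs in 2 of 13 cells) in RTT and 1 UMI in 26 cells in RTT_ROSA26. Other macrophage types lay well above the NK cells of their own sample, with 105 CPM in Macro (87.9 to 124) and 96.5 CPM in TAM_H2Ab1 (88.7 to 105) of RTT_PTGS12KO and 104 CPM in TAM_H2Ab1 of NTT (90.1 to 118).

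**Figure D2:**
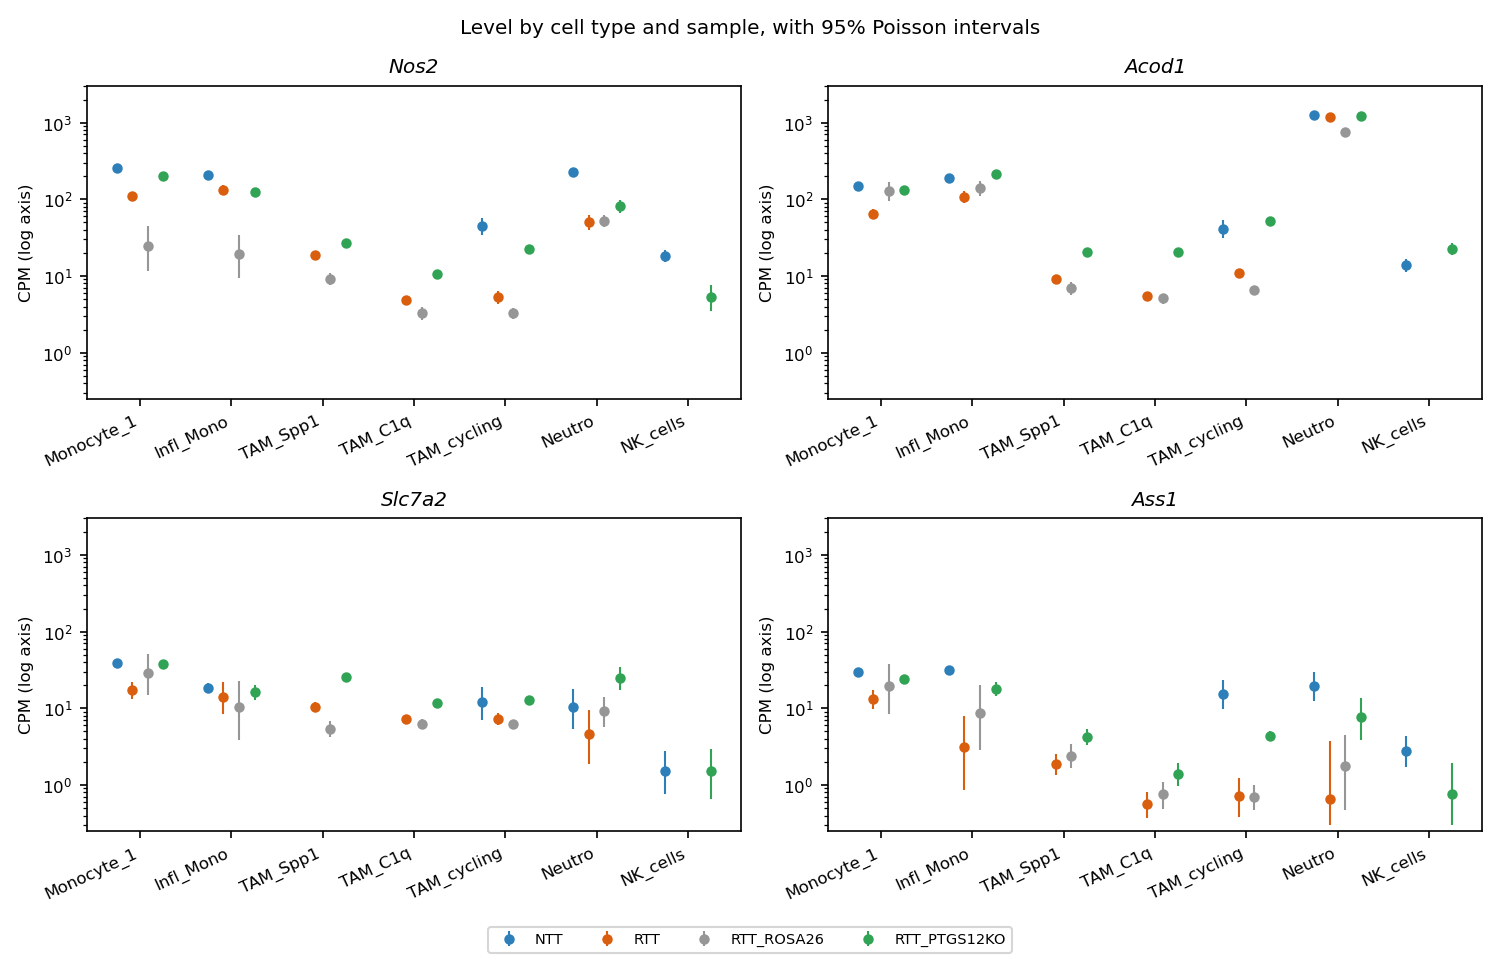
Levels of Nos2, Acod1, Slc7a2 and Ass1 in 7 cell types (CPM of summed UMIs on a log axis), 1 point per sample, with bars for the 95% Poisson interval. Nos2 in Monocyte_1 runs from 24.3 CPM in RTT_ROSA26 to 259 CPM in NTT, and Acod1 is highest in neutrophils of all 4 samples.

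The genes that feed or recycle arginine were found in monocytes at lower levels, and in RTT and RTT_ROSA26 most of their UMIs came from other types. Of the UMIs of the importer Slc7a2, Monocyte_1 held 82.6% in NTT and 48.9% in RTT_PTGS12KO, but 7.41% in RTT, where TAM_C1q held 42.2%, and 1.93% in RTT_ROSA26, where TAM_cycling held 42.4% and TAM_C1q 34.8%. Its level in Monocyte_1 was 38.9 CPM in NTT, 37.9 CPM in RTT_PTGS12KO, 29.1 CPM (15 to 50.8) in RTT_ROSA26 and 17.4 CPM in RTT. The citrulline-recycling enzyme Ass1 was at 29.5, 24.3, 19.4 and 13.2 CPM there in the same order, with 8 UMIs in RTT_ROSA26, and Monocyte_1 held 66.3, 62.4, 6.06 and 27.0% of its UMIs. RTT was the lowest of the 4 samples for both genes, though its interval overlapped that of RTT_ROSA26. The highest Ass1 level of all was in cDC2 of NTT, a conventional dendritic cell type, with 37.9 CPM, followed in that type by RTT_PTGS12KO (20.6 CPM), RTT (9.40 CPM) and RTT_ROSA26 (4.74 CPM).

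Odc1, the polyamine enzyme, was the most even of the arginine genes, from 57.5 to 375 CPM over the 42 combinations with a median of 88.5 CPM. T_CD8 of NTT held that highest value, and the 45 T_CD8 cells of RTT_PTGS12KO gave 361 CPM.

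The tryptophan enzymes were rare. Il4i1 was highest in DC3, the CCR7+ dendritic cells, which were 0.587% of the cells and held 71.5% of its UMIs over all samples. This share was 94.9% in NTT and 77.3% in RTT_PTGS12KO but 18.1% in RTT, where TAM_C1q held 30.6%, and 32.1% in RTT_ROSA26, where TAM_cycling held 24.7%. Its level there was 352 CPM (307 to 401, 89 cells) in NTT and 269 CPM (233 to 309, 81 cells) in RTT_PTGS12KO, and 111 CPM and 220 CPM in the 12 and 14 cells of RTT and RTT_ROSA26. Ido1 did not reach 10 CPM in any combination and was at most 8.27 CPM, in Ctsk_Macro of RTT_PTGS12KO, from 32 UMIs in 12 of 188 cells. In Ctsk_Macro of RTT and RTT_ROSA26 it had 2 UMIs each (0.333 and 0.233 CPM). Monocyte_1 gave 83 Ido1 UMIs (2.09 CPM) in NTT, 12 (0.329 CPM) in RTT_PTGS12KO, 5 (1.38 CPM) in RTT and 0 in RTT_ROSA26, where a count of 0 allows up to 7.28 CPM (3 UMIs).

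In monocytes and macrophages summed, Nos2, Acod1, Ass1 and Slc7a2 were higher in NTT than in RTT. Nos2 was 232 against 13.3 CPM, a log2 ratio (of CPM + 1, as for all ratios below) of 4.03 (3.95 to 4.11). Acod1 was 151 against 10.8 CPM with a ratio of 3.69 (3.60 to 3.77), and Ass1 was 28.7 against 1.35 CPM with a ratio of 3.66 (3.50 to 3.81). The smallest of the 4 ratios was 1.88 (1.77 to 1.99), for Slc7a2. Odc1 stayed within 2-fold at -0.60. Thus 4 of the 5 genes over 10 CPM were at least 2-fold apart, beside 14.1% of all genes tested. The median over all genes was -0.10, and trimmed-mean (TMM) scaling would raise every ratio of this comparison by 0.19.

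The summed ratios depended on the mix of cell types. Monocyte_1 and Infl_Mono were 4977 and 1616 cells in NTT but 384 and 138 in RTT, and the summed monocyte markers were 7088 against 441 CPM. When the levels of RTT were weighted by the type mix of NTT, the ratios fell to 1.10 for Nos2, 1.07 for Acod1, 1.42 for Ass1 and 1.00 for Slc7a2. These 4 thus remained at least 2-fold apart, beside 2.96% of all genes with that mix.

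RTT_PTGS12KO against RTT_ROSA26, the comparison of the cyclooxygenase knockout with its guide control, again had Nos2, Acod1 and Slc7a2 higher. Nos2 was 74.0 against 4.15 CPM (log2 ratio 3.86, 3.75 to 3.98), Acod1 72.7 against 7.21 CPM (3.17, 3.07 to 3.26) and Slc7a2 20.8 against 5.74 CPM (1.69, 1.58 to 1.81). Odc1 differed by 0.28. Thus 3 of 4 genes were at least 2-fold apart, beside 5.3% of all genes. Ass1, at 9.78 against 1.06 CPM, had a ratio of 2.39 but a mean below 10 CPM. With the type mix of RTT_PTGS12KO given to RTT_ROSA26, Nos2 kept a ratio of 2.61, whereas Acod1 fell to 0.61 and Slc7a2 to 0.73. The monocyte markers were 2192 against 387 CPM in these sums, and TMM scaling would raise every ratio by 0.17.

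RTT_ROSA26 against RTT served as a yardstick of 2 resistant tumours with both cyclooxygenases. It shares RTT_ROSA26 with the comparison above and RTT with the one before, so the 3 sets of ratios are not independent. The 1 gene over 10 CPM, Odc1, was within 2-fold at -0.19 (103 against 118 CPM), so 0 of 1 was at least 2-fold apart, beside 1.46% of all genes. Nos2, at 4.15 against 13.3 CPM, was lower in RTT_ROSA26 by a ratio of -1.47 with a mean below 10 CPM. The 2 control tumours thus differed in Nos2 by more than 2-fold. RTT_ROSA26 was the low sample both here and against RTT_PTGS12KO, so its own low level is part of both ratios, and RTT_PTGS12KO, at 74.0 CPM, also lay above the 13.3 CPM of RTT.

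**Figure D3:**
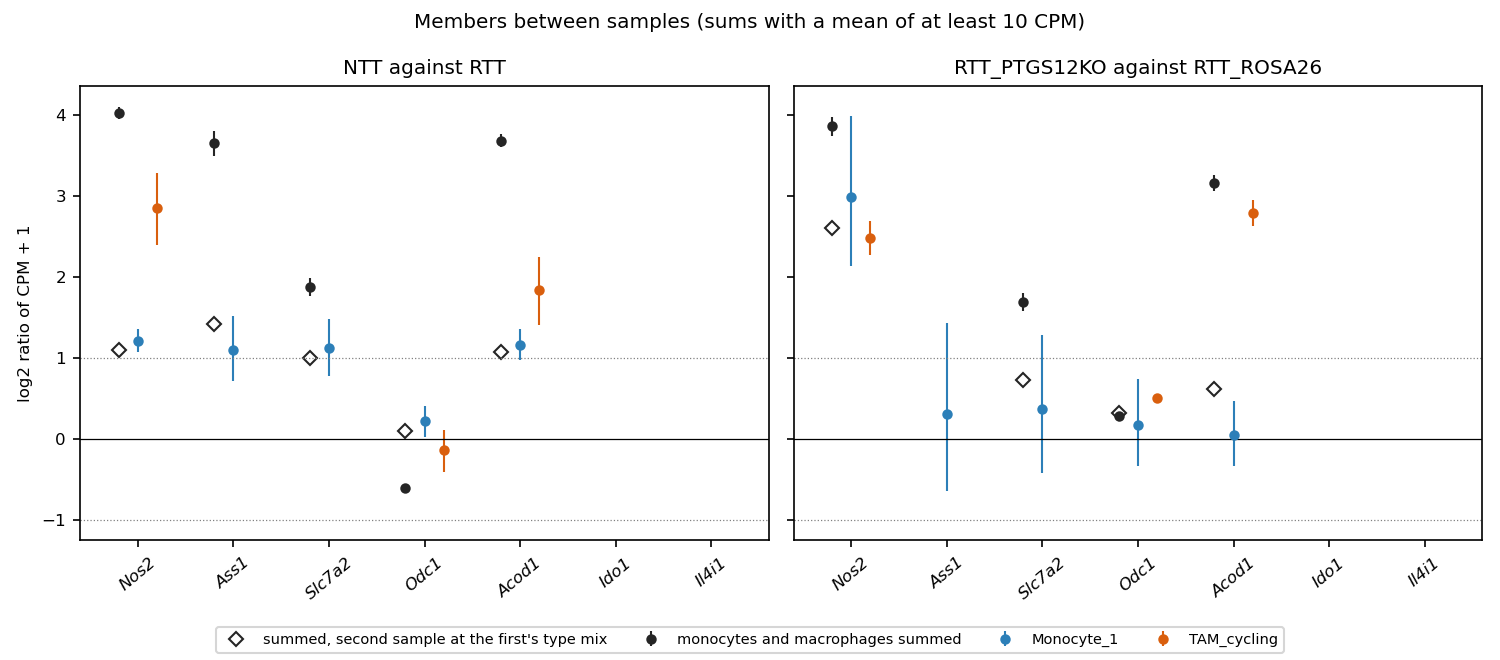
Log2 ratios (CPM + 1) of the members in 2 comparisons, of NTT with RTT and of RTT_PTGS12KO with RTT_ROSA26, in monocytes and macrophages summed, in Monocyte_1 and in TAM_cycling, with 95% counting intervals, where diamonds give the summed ratio after both samples have the cell type mix of the first. Nos2 in the summed cells falls from 4.03 to 1.10 in the first comparison and from 3.86 to 2.61 in the other.

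Within Monocyte_1, NTT exceeded RTT in 4 of 5 genes, beside 3.13% of all genes at least 2-fold apart. These were Nos2 at 1.21 (1.07 to 1.36), Acod1 at 1.16 (0.98 to 1.36), Slc7a2 at 1.12 (0.77 to 1.48) and Ass1 at 1.10 (0.71 to 1.52). Odc1 (0.21) was nearly level. The intervals of Acod1, Slc7a2 and Ass1 reached below 1, so that a 2-fold difference is not set by the counts for these 3. The monocyte markers of this type also differed, with 6510 CPM in NTT and 2514 CPM in RTT, as did the macrophage markers (5283 and 11374 CPM), and the part of cell state in the ratios was not tested.

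The guide control had only 54 cells of Monocyte_1. Against it, RTT_PTGS12KO was at least 2-fold apart in 1 of 5 genes, beside 5.95% of all genes, namely Nos2 at 2.99 (2.14 to 3.99), while Acod1 (0.05, -0.34 to 0.47) was level within its interval. RTT_ROSA26 against RTT also gave 1 of 5, beside 6.98%, and again it was Nos2, at -2.15 (-3.16 to -1.28). Acod1 was higher in RTT_ROSA26 by 0.97 (0.52 to 1.40). Nos2 in the 3 loads of RTT_ROSA26 ran from 6.6 to 37.0 CPM, against 256 to 261 CPM in NTT, 87.0 to 149 CPM in RTT and 180 to 214 CPM in RTT_PTGS12KO.

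Infl_Mono, the monocytes with interferon-induced genes, had 1 of 5 genes at least 2-fold apart between NTT and RTT, beside 6.58%. Ass1 was higher in NTT at 2.97 (1.83 to 4.14), with 4 UMIs in RTT. Nos2 (0.66) and Acod1 (0.82) were within 2-fold. The markers of this type differed more than those of Monocyte_1, with macrophage markers of 4554 CPM in NTT and 24281 CPM in RTT and monocyte markers of 10861 and 5482 CPM, and the part of cell state in the ratios was not tested. RTT_PTGS12KO against RTT_ROSA26 gave 1 of 5, beside 6.91%, with Nos2 at 2.66. RTT_ROSA26 against RTT gave 1 of 4, beside 8.23%, with Nos2 lower in RTT_ROSA26 at -2.72. The macrophage markers were 10028 CPM in RTT_ROSA26 and 3320 CPM in RTT_PTGS12KO.

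Nos2 and Acod1 were higher in TAM_Spp1 and TAM_cycling of RTT_PTGS12KO than in those of RTT_ROSA26. In TAM_Spp1, 3 of 4 genes were at least 2-fold apart, beside 2.21% of all genes: Slc7a2 at 2.07 (1.75 to 2.39), Nos2 at 1.46 (1.19 to 1.73) and Acod1 at 1.45 (1.15 to 1.75), all higher in RTT_PTGS12KO. The Acod1 level of RTT_PTGS12KO in this ratio and in that of TAM_C1q did not exceed its NK cells (20.6 against 22.4 CPM), though cDC2 of RTT_ROSA26, from the same loads, showed 1.82 CPM. The part of free RNA in the 2 ratios was not tested. The Nos2 value depended on the load: it ran from 0.987 to 15.6 CPM over the 3 loads in RTT_ROSA26 and from 19.5 to 33.2 CPM in RTT_PTGS12KO, and the ratio was 3.90 in load 1, 1.78 in load 2 and 0.30 in load 3, within 2-fold in the last. Acod1 was at 1.30 to 1.55 and Slc7a2 at 1.44 to 2.63 over the loads. For the same comparison TAM_cycling, the dividing macrophages, gave 2 of 3, beside 4.14%, with Acod1 at 2.79 (51.7 against 6.64 CPM) and Nos2 at 2.48, and TAM_C1q gave 1 of 2, beside 1.86%, with Acod1 at 1.83. RTT_ROSA26 against RTT gave 0 of 2 in TAM_Spp1, beside 0.961%, with Nos2 (-0.96) just under 2-fold. In TAM_C1q it gave 0 of 1, beside 0.728%, with Odc1 at -0.37.

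Monocyte markers moved with these ratios in TAM_cycling and against them in TAM_Spp1. In TAM_cycling they summed to 723 CPM in RTT_PTGS12KO and 192 CPM in RTT_ROSA26, with 4 of 4 over 10 CPM in both, whereas in TAM_Spp1 they were 904 CPM in RTT_PTGS12KO and 1219 CPM in RTT_ROSA26, the lower value going with the higher Nos2. Their part in the TAM_cycling ratios was not tested. NTT against RTT in TAM_cycling rested on 79 cells of NTT and gave 2 of 3, beside 9.04%, again Nos2 (2.85) and Acod1 (1.84) and with monocyte markers of 2522 against 210 CPM. In Ctsk_Macro 1 of 2 genes was at least 2-fold apart between RTT_PTGS12KO and RTT_ROSA26, beside 5.08%, and it was Acod1 at 3.10 (2.58 to 3.61), 31.5 (26.2 to 37.6) against 2.80 CPM, an interval that overlapped that of the NK cells of RTT_PTGS12KO. Ido1 had a ratio of 2.91 (2.18 to 3.24) there with a mean under 10 CPM.

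In neutrophils and cDC2, Nos2 and Ass1 were higher in NTT than in RTT. In neutrophils 2 of 4 genes were at least 2-fold apart, beside 9.26%: Ass1 at 3.64 (1.98 to 4.41, with 1 UMI in RTT) and Nos2 at 2.14. Acod1 differed by 0.09 (-0.01 to 0.19). In cDC2 it was again 2 of 4, beside 10.8%, with Ass1 at 1.90 and Nos2 at 1.69 higher in NTT. The Nos2 level of cDC2 in NTT, 20.5 CPM (15.1 to 27.1), did not exceed the 18.2 CPM of its NK cells by more than counting error. Neutrophils of RTT_PTGS12KO and RTT_ROSA26 differed in 1 of 4 genes, beside 10.6%, Slc7a2 at 1.35 (0.59 to 2.12), from 36 and 21 UMIs. It turned to -0.13 in load 2 alone. Acod1 was at 0.65.

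In Monocyte_1, Nos2 was found in the same single cells as Slc7a2 and Acod1 more often than the product of their separate shares. So that depth did not set the shares, each cell was thinned to 4000 UMIs and shallower cells were left out, which removed 431 of the Monocyte_1 cells in NTT, 17 in RTT, 152 in RTT_PTGS12KO and 8 in RTT_ROSA26. In Monocyte_1 of NTT, 37.8% of 4546 cells had a Nos2 UMI, 34.0% an Acod1 UMI and 9.92% a Slc7a2 UMI. Nos2 and Slc7a2 were together in 6.49% (5.79 to 7.24, exact Clopper-Pearson interval) against a product of 3.75%, and Nos2 and Acod1 in 17.1% (16.0 to 18.2) against 12.9%. In RTT_PTGS12KO, where 31.5% of 3195 cells had Nos2, the corresponding values were 5.35% against 2.87% and 14.4% against 10.2%. In Infl_Mono of NTT, Nos2 and Slc7a2 were together in 2.35% (1.64 to 3.27) against a product of 1.71%, which lay inside the interval, and Nos2 and Acod1 in 18.2% (16.3 to 20.3) against 14.1%. In Infl_Mono of RTT_PTGS12KO these were 2.02% (1.05 to 3.50) against 0.611% and 10.3% (7.93 to 13.0) against 6.74%.

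As a ratio to the product, Nos2 and Slc7a2 met 1.73 times in NTT, 1.86 times in RTT_PTGS12KO and 3.11 times in RTT, the last from 13 of 367 cells. For Nos2 and Acod1 the ratio was 1.33, 1.41 and 2.00 in the same samples. The ratio for Nos2 and Odc1 was nearer to 1, at 1.06 in NTT and 0.92 in RTT_PTGS12KO, though 1.58 in RTT, from 19 of 367 cells. Only 3 of 46 cells of RTT_ROSA26 held Nos2, 1 of them with Acod1 and none with Slc7a2, and a count of 0 allows a joint share of up to 6.52% (3 cells). Without thinning, Nos2 and Slc7a2 were together in 11.3% of Monocyte_1 cells in NTT and 12.7% in RTT_PTGS12KO, at median depths of 7273 and 9667 UMIs, and Nos2 and Acod1 in 28.5% and 28.6%.

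In macrophages the genes were rarer. Of the thinned TAM_Spp1 cells, Nos2 was in 4.91% in RTT, 6.20% in RTT_PTGS12KO and 1.56% in RTT_ROSA26, and Slc7a2 in 2.73, 8.19 and 1.35%. Nos2 and Slc7a2 were together in 12 of 2018, 16 of 1258 and 1 of 1411 cells. NK cells, which should hold neither gene, gave 4.23% Nos2 and 0.651% Slc7a2 in NTT, with 2 of 614 cells holding both, and 1.72% Nos2 and 0.687% Slc7a2 in RTT_PTGS12KO, with 0 of 291 cells holding both, which allows up to 1.03%. Acod1 and Nos2 were together in 8 of 614 NK cells of NTT, 6.30 times the product. The Nos2 shares of TAM_Spp1 in RTT and RTT_ROSA26 do not exceed that of the NK cells of NTT by more than counting error (4.00 to 5.94% in RTT against 2.78 to 6.14%). That of RTT_PTGS12KO (6.20%) is above the NK cells of its own sample, but its counting interval overlaps that of the NK cells of NTT. The share in RTT also lies above the NK cells of RTT_PTGS12KO. The Nos2 shares of Monocyte_1 in NTT, RTT and RTT_PTGS12KO are above both NK values. The median depth of all NK cells was 7669 UMIs in NTT and 15524 UMIs in RTT_PTGS12KO. Doublets of cells from different samples had been removed by the sample labels, and doublets within a sample were not called, so the joint shares include them.

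**Figure D4:**
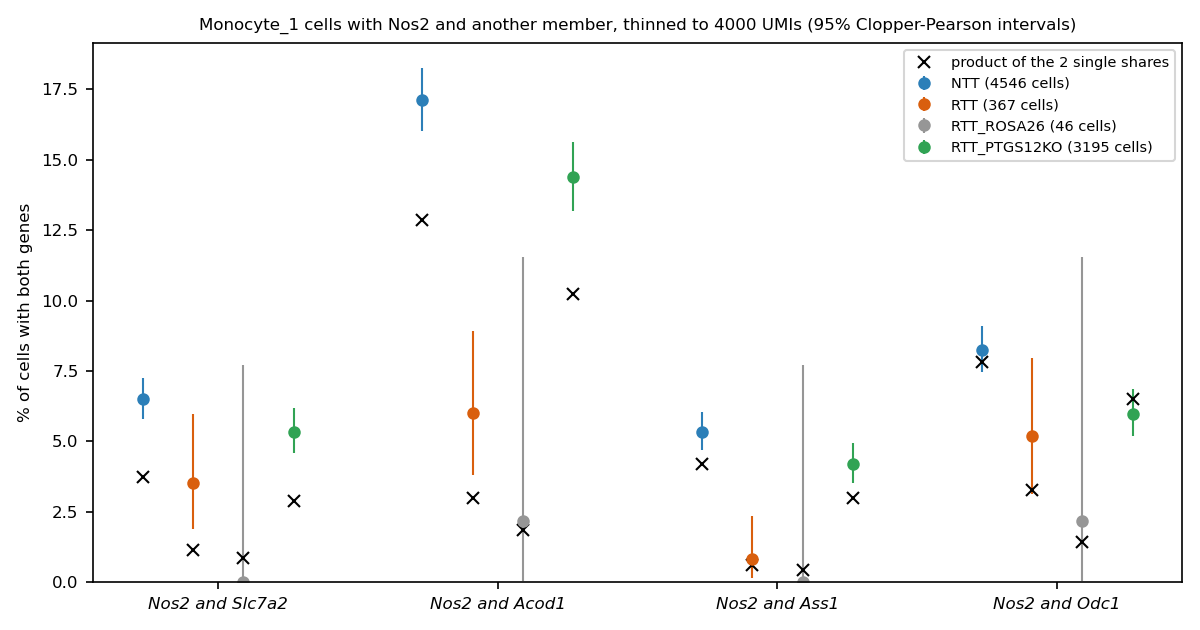
Share of Monocyte_1 cells with at least 1 UMI of both Nos2 and a second gene after thinning to 4000 UMIs (points, with 95% Clopper-Pearson intervals, 1 colour per sample), beside the product of the 2 single shares (crosses). In NTT, Nos2 and Slc7a2 are together in 6.49% of cells against a product of 3.75%, whereas Nos2 and Odc1 lie at 1.06 times their product.

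Monocytes with Nos2 carried more of the arginine importer. Monocyte_1 cells were divided by the thinned call into 1719 with Nos2 and 2827 without it in NTT, 1007 and 2188 in RTT_PTGS12KO, and 64 and 303 in RTT, and the other members were then summed over all UMIs. Over all UMIs the class without Nos2 still held 33.2 CPM of Nos2 in NTT, 34.4 CPM in RTT_PTGS12KO and 20.5 CPM in RTT, so it includes cells with Nos2. Median depths with and without Nos2 were 7540 and 7634 UMIs in NTT, 9778 and 10134.5 UMIs in RTT_PTGS12KO, and 9089 and 8754 UMIs in RTT. Slc7a2 was 73.6 CPM (69.2 to 78.1) with Nos2 against 17.8 CPM (16.1 to 19.6) without it in NTT. It was 79.1 against 19.2 CPM in RTT_PTGS12KO and 57.1 against 8.87 CPM in RTT, so that the intervals of the 2 classes stayed apart in all 3 samples. In Infl_Mono, Slc7a2 was 29.8 CPM (24.6 to 35.8) with Nos2 against 12.6 CPM (10.2 to 15.4) without it in NTT, and 61.5 CPM (45.7 to 81.1, 94 cells) against 7.38 CPM (4.98 to 10.5) in RTT_PTGS12KO. TAM_Spp1 showed the same order, with 67.0 CPM in the 99 cells with Nos2 against 7.59 CPM in RTT, and 67.5 CPM in 78 cells against 23.5 CPM in RTT_PTGS12KO. Other markers moved with this split of TAM_Spp1 too: with against without Nos2, the macrophage markers were 10505 against 16638 CPM in RTT and 8678 against 12283 CPM in RTT_PTGS12KO, and the neutrophil markers 371 against 210 CPM and 257 against 167 CPM. The Nos2 share of TAM_Spp1 in RTT did not exceed that of the NK cells of NTT, as given above, but lay above that of the NK cells of RTT_PTGS12KO (0.56 to 3.96%).

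Acod1 and Ass1 were higher with Nos2 as well. In Monocyte_1 of NTT Acod1 was 225 CPM with Nos2 and 97.9 CPM without it, in RTT_PTGS12KO 208 and 99.3 CPM, and in RTT 165 and 43.7 CPM. Ass1 was 39.4 against 23.6 CPM in NTT and 35.8 against 19.1 CPM in RTT_PTGS12KO, while in RTT, with 13 UMIs in the cells with Nos2, its intervals overlapped. Odc1 varied less and in both directions, at 85.0 against 71.7 CPM in NTT and 73.9 against 86.4 CPM in RTT_PTGS12KO.

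The classes also differed in markers of cell state. The monocyte markers were 6321 CPM with Nos2 and 6551 CPM without it in NTT, and 4505 and 4343 CPM in RTT_PTGS12KO. The macrophage markers were lower with Nos2, at 4231 against 6013 CPM in NTT and 5332 against 7081 CPM in RTT_PTGS12KO. The Spp1 macrophage markers (Spp1, Fn1, Thbs1 and Vegfa) went up with Nos2 in NTT (1294 against 815 CPM) and down in RTT_PTGS12KO (2325 against 2662 CPM). In RTT the monocyte markers were 3110 against 2319 CPM, the macrophage markers 10042 against 11664 CPM and the Spp1 macrophage markers 2436 against 1853 CPM. The neutrophil markers were 360 against 255 CPM in NTT, 279 against 216 CPM in RTT and 247 against 226 CPM in RTT_PTGS12KO, and those of CCR7+ dendritic cells 27.8 against 1.36 CPM in RTT, from 18 and 4 UMIs, but 2.71 against 2.39 CPM in NTT. The part of cell state and of other cell types in the levels of the members was not tested.

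**Figure D5:**
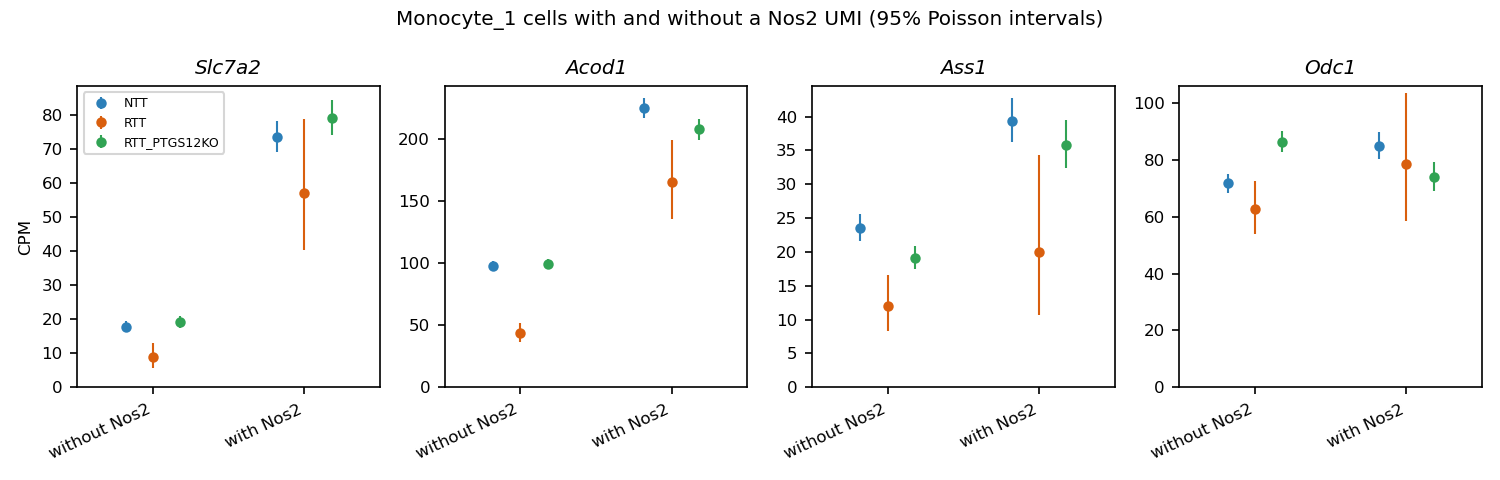
Levels (CPM, with 95% Poisson intervals) of Slc7a2, Acod1, Ass1 and Odc1 in Monocyte_1 cells without and with a thinned Nos2 UMI, 1 point per sample for NTT, RTT and RTT_PTGS12KO. Slc7a2 runs from 8.87 to 19.2 CPM without Nos2 and from 57.1 to 79.1 CPM with it.

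Nos2 transcripts were concentrated in few cells. The top 10% of Monocyte_1 cells held 58.0% of the thinned Nos2 UMIs in NTT, 64.5% in RTT_PTGS12KO and 80.9% in RTT, and the highest single cell had 22, 22 and 15 of its 4000 UMIs from Nos2. Acod1 was spread in a similar way, with 54.2, 56.2 and 75.2% of its UMIs in the top 10% of cells.

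Across the 42 combinations of type and sample, the genes most like Nos2 of 7096 compared were Ly6i (Pearson r 0.875 of log2(CPM + 1)), Glrx (0.874) and the monocyte marker Ly6c2 (0.862). Acod1 was most like Slfn4 (0.880), Slfn1 (0.873) and the neutrophil receptor gene Csf3r (0.866). For Ido1, with a mean of 0.671 CPM, the nearest were Clic5 (0.679), Tgtp1 (0.619) and Ogfr (0.595). Among the members themselves Nos2 went with Acod1 (0.808) and Slc7a2 (0.731) but not with Odc1 (-0.21). The 42 points share 4 samples, 3 loads and their free RNA, so these are descriptions of likeness.

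Of the other genes of the same pathways, 5 of 36 over 10 CPM (13.9%) were at least 2-fold apart for NTT against RTT, near the 14.1% of all genes. In the summed monocytes and macrophages, 17 of 24 listed genes of arginine, nitric oxide and polyamine metabolism were over 10 CPM for NTT against RTT, of which 0 were at least 2-fold higher and 2 lower, with a median log2 ratio of -0.38 beside -0.10 over all genes. Of 15 genes around itaconate in the tricarboxylic acid cycle all 15 passed, with 0 higher and 2 lower (median -0.36), and of 19 tryptophan and kynurenine genes 4 passed, with 1 higher and 0 lower (median 0.63). The 2 lower genes of the itaconate list were the isocitrate dehydrogenases Idh2 (22.0 against 74.1 CPM, -1.71) and Idh1 (25.1 against 71.4 CPM, -1.47). The other 3 past 2-fold, Srm (-1.40), Paox (-1.68) and Wars (1.16), lay under the level set for naming and are named after their values were seen. For RTT_PTGS12KO against RTT_ROSA26, 19, 15 and 4 genes passed and 1 was at least 2-fold apart (2.63%), under the 5.3% of all genes. It was Gatm, the first enzyme of creatine synthesis from arginine, at 1.04 (273 against 133 CPM). For RTT_ROSA26 against RTT none of 18, 15 and 4 was at least 2-fold apart, beside 1.46% of all genes.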

How the data were processed

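The deposited values were UMI counts per gene and cell from a pooled 3' CellPlex experiment, made by the authors with Cell Ranger and Seurat 4.3.0 on mm10 per the submitters' processing notes. Per the study's methods, cells had over 1000 genes, under 15% mitochondrial and under 40% ribosomal counts, and the deposited annotation gave each cell's type and sample. The number of tumours per sample is given as 1 in the labels and as pooled tumours in the study, which was not settled here.

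Counts were summed per type and sample and divided by total UMIs (CPM) with exact Poisson intervals. Ratios were log2 of CPM + 1, with an interval from the exact conditional binomial of the 2 counts, and were made for types with at least 50 cells in both samples. Genes with a mean of 10 CPM in the 2 samples counted as tested, and 2-fold was the size used, with no test since each group has 1 sample. For the share of cells with Nos2 and another member, cells were thinned to 4000 UMIs with a fixed seed, the share had a Clopper-Pearson interval, and a count of 0 was read with a limit of 3 counts. The members and lists were chosen with earlier results of these data known. Beside the members, genes were named by rule: pathway genes at least 2-fold apart with 50 CPM in the higher sample, and the 3 genes most like Nos2, Acod1 and Ido1. The alternatives were another pseudocount, TMM factors from edgeR, stricter cells, leaving out the cells with the most UMIs, single-cell means, single loads and, chosen after seeing the data, a common mix of cell types and the same settings and other thinning depths for the pairs with Nos2. The pairs with Nos2 and the levels in cells with and without it were also chosen after seeing the data. Of the listed genes, 2 are not reported here, nor are the results that need them. The code was tested on simulated data. Python 3.11.15, numpy 2.4.6, scipy 1.17.1, pandas 2.3.3, matplotlib 3.10.9, R 4.3.3 and edgeR 4.0.16 were used.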

Additional observations from a re-analysis of the deposited data

Results flagged for a closer look

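Pairs of cell types were sought in which a member over 10 CPM went opposite ways in the same comparison, with both counting intervals off 0 and at least 1 of the ratios 2-fold. Acod1 alone met this, in 1 comparison. The difference was not tested, since each group is 1 sample. For RTT_ROSA26 against RTT, the log2 ratio of Acod1 was 1.25 in the type labelled Macro (19.9 against 7.79 CPM, from 22 and 8 UMIs in 130 and 99 cells) and -0.64 in Neutro (764 against 1188 CPM). In Monocyte_1 it was 0.97, also opposite to Neutro. In Macro the direction turned in load 1 alone, to -2.85.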

How the results depend on the processing

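No paired analysis was possible because the labels give 1 sample a group and no replicate numbers. The number of members at least 2-fold apart in the summed monocytes and macrophages was 4 for NTT against RTT, beside 14.1% of all genes. It was 4 or 5 in the other settings tried, but 2 in macrophages only (beside 8.38%). The share of all genes beside the 4 or 5 ran from 2.96% (cell type mix of the first sample) to 14.5% (without the cells with the most UMIs). For RTT_PTGS12KO against RTT_ROSA26 it was 3, beside 5.30% of all genes, and 2 to 4 in the other settings tried. It was 2 with CPM + 10 (beside 3.61%) and in macrophages only (3.15%), and 4 with no minimum CPM (1.91%). It was 1 in monocytes only (beside 3.50%) and 1 with the cell type mix of the first sample (1.33%). For RTT_ROSA26 against RTT it was 0, beside 1.46%, but 1 with the mean of single cells (beside 1.37%), with no minimum CPM (0.548%) and in monocytes only (3.23%). Of 56 ratios past 2-fold, 56 remained so with TMM factors and with stricter cells, 53 without the cells with the most UMIs, 51 with means of single cells, 46 to 52 with 1 load alone and 42 with CPM + 10, and of 24 that could be computed with the common mix, 18 remained. A ratio turned its direction in 3 cases, each in 1 load: Acod1 for RTT_ROSA26 against RTT in Macro (-2.85 in load 1), Slc7a2 for RTT_PTGS12KO against RTT_ROSA26 in Neutro (-0.13 in load 2) and Nos2 for RTT_PTGS12KO against RTT_ROSA26 in cDC2 (-1.65 in load 1, against 1.17). The ratio of the observed share to the product was varied for Nos2 with Slc7a2 and Nos2 with Acod1, in Monocyte_1 of NTT and RTT_PTGS12KO. With settings chosen after seeing the data, it stayed within its counting error in 26 of 32 alternatives. Of the 6 others, 4 were in the thinning: with 2000 UMIs Nos2 with Slc7a2 was 2.11 in NTT and 2.52 in RTT_PTGS12KO and Nos2 with Acod1 was 1.55 in NTT, and without thinning Nos2 with Acod1 was 1.27 in RTT_PTGS12KO. The other 2 were single loads, with Nos2 and Acod1 at 1.55 in load 1 and 1.27 in load 3 of RTT_PTGS12KO. Each of these ratios, of Nos2 with Slc7a2 or Acod1, was above 1 in every setting tried, and the pair with Odc1 was not varied in this way.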
